A study of Mus musculus with 6 samples.

Results

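The constitutive proteasome subunit genes were followed in haematopoietic stem cells (HSCs) sorted with or without the surface receptor CD93. Members were the genes whose symbol is Psma, Psmb, Psmc, Psmd, Psme, Psmf or Psmg followed by digits only, without the immunoproteasome genes Psmb8, Psmb9 and Psmb10. This gave 45 genes of the 47937 in the deposited table. They were 14 core subunits (Psma1 to Psma7 and Psmb1 to Psmb7), 17 regulatory particle subunits (6 ATPases and 11 non-ATPases), 2 tissue-specific core subunits, 7 assembly chaperones, 4 activators and 1 inhibitor. Polyadenylated RNA was sequenced from marrow cells of wild-type C57BL/6 mice aged 8 weeks, which the labels describe as male, with 3 libraries of CD93+ HSCs (CD93pos) and 3 of CD93- HSCs (CD93neg). Both fractions came from lineage-depleted marrow and shared the gate LSK, CD34-, CD48-, Flt3- and Slam1+, and neither was treated. The labels call the replicates biological without saying which animals gave which library, so p-values measure the spread between these libraries. Each library is a bulk of many cells, so fewer cells of a type and less RNA per cell cannot be told apart.

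The proteasome is the large protease that degrades proteins tagged with ubiquitin. Its core particle is a barrel of alpha and beta rings, with the alpha rings guarding the entry and the proteolytic sites on the inner face of the beta rings. The regulatory particle caps the barrel: its non-ATPase subunits receive the substrate and remove ubiquitin, and its ATPase ring unfolds the chain and threads it into the core. Adult HSCs are known to make protein more slowly than most of their progeny, and the proteasome is one route by which they dispose of damaged protein.

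The libraries held 2832653 to 9509304 reads assigned to genes. CD93neg replicate 1 stood apart: 71.0% of the 11805 tested genes had no read in it, against 26.4% and 16% in CD93neg replicates 2 and 3 and 2.10% to 13.5% in CD93pos. Cd93 itself was at 95.3, 173 and 76.9 CPM (reads per 1000000 assigned) in the CD93pos libraries and at 0, 90.8 and 12.7 CPM in the CD93neg libraries, so by transcript CD93neg replicate 2 lay within the range of CD93pos. Of 10 HSC marker genes, 10 were read in each library but CD93neg replicate 1, where 4 were. Reads of 10 neutrophil markers summed to 206 to 576 CPM in CD93pos and to 0, 13121 and 8373 CPM in CD93neg replicates 1, 2 and 3, with Ly6g at 0 in each CD93pos library. Mpo and Elane were found in every CD93pos library (1622, 1092 and 3446 times for Mpo, 189, 87 and 625 for Elane). Within CD93neg they were found in replicate 2 alone, at 3408 and 2096. The other listed neutrophil genes were each read more in CD93neg replicates 2 and 3 than in any CD93pos library. Reads of 8 B lineage markers summed to 73.0 to 97.6 CPM in CD93pos and to 0.353, 11111 and 34016 CPM in CD93neg, with Cd79a, Pax5, Ms4a1 and Ebf1 at 0 in each CD93pos library. Cd79b was found in every CD93pos library (584, 364 and 349 times) as well as in CD93neg replicates 2 and 3 (786 and 340). Igkc and Ighm were at 20727 to 57889 in those CD93neg replicates and at no more than 176 in any CD93pos library. Mast cell and basophil markers (6 genes) summed to 94.7, 1057 and 696 CPM in CD93pos and to 0, 27.5 and 0 CPM in CD93neg, with 5 of the 6 at 0 in each CD93neg library. Erythroid markers (6 genes) summed to 181 to 496 CPM in CD93pos and 0 to 133 CPM in CD93neg, and T lineage markers (5 genes) to at most 14.7 CPM in any library. Xist, expressed from the inactive X chromosome of female cells, was found at 2419 and 1143 reads in replicates 2 and 3 of CD93neg and at no more than 12 in any other library, which goes against the male label. Ddx3y, on the Y chromosome, was read 855, 328 and 243 times in CD93pos and never in CD93neg. The part of these differences in the proteasome values was not tested.

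Promoters of 4 members are shown. Psmd2 and Psmc1 had the widest gaps between the groups of all core and regulatory subunits, Psmc6 holds both an ETS and an antioxidant response element match, and Psma1 was among the steadiest members. These promoters were picked by such traits and do not show whether a motif goes with a gap. Each runs from 250 bases before to 50 bases after the start site in RefSeq (GRCm38.p6), 5′ to 3′ on the strand of the gene. Capitals mark matches on either strand to the ETS factor motif CCGGAAG, the CCAAT box, and the antioxidant response element core TGACNNNGC. The windows are Psmd2 at chr16:20651402-20651701 (plus strand), Psmc1 at chr12:100109952-100110251 (plus), Psmc6 at chr14:45329574-45329873 (plus) and Psma1 at chr7:114276067-114276366 (minus).
Psmd2: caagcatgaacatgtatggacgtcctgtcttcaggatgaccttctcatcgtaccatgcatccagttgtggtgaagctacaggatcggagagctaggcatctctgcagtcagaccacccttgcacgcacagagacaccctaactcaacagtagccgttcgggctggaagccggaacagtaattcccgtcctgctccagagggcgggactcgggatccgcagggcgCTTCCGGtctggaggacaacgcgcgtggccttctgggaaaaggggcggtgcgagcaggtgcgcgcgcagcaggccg
Psmc1: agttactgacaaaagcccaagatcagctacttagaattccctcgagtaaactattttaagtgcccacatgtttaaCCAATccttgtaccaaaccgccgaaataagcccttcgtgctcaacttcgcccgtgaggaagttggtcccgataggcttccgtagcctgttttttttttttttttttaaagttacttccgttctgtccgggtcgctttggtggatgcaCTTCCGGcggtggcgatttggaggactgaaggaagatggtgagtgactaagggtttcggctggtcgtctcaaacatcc
Psmc6: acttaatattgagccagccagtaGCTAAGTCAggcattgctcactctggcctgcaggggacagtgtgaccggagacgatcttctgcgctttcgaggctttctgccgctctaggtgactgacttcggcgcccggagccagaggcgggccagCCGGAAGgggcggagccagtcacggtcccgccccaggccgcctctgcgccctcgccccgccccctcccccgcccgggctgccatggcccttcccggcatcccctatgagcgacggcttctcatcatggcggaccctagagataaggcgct
Psma1: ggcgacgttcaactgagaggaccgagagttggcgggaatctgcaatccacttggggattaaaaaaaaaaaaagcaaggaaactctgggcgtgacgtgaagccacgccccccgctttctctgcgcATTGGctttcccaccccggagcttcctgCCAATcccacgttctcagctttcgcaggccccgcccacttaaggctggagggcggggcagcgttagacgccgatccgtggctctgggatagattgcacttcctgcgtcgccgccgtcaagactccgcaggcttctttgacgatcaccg

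RefSeq held windows for 37 of the 45 members, 40 windows in all, and these were set beside all 32851 windows of the same length. The ETS motif was present in 15 of the 40 windows (37.5%), against 8.86% of all windows. It was found in members whose normalized counts overlapped between the groups, such as Psmc2 and Psmd4, and in members without overlap, such as Psme3. CCAAT was present in 32.5% and 37.4%, and the antioxidant response element core, bound by Nfe2l1 and Nfe2l2, in 15.0% and 12.4%. Its looser form TGANNNNGC, which holds every match of the stricter one, was present in 57.5% and 41.3%. The nuclear respiratory factor site GCGCATGC, as 1 of its repeats, and the YY1 site AAGATGGC were each present in 7.5% of member windows, against 2.71% and 2.75% of all windows. Median GC content was 58.2% in member windows and 52.7% in all windows. These are counts of letters and carry no test.

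Reads of the 45 members made up 0.986% (95% Wilson interval 0.980 to 0.993), 0.923% (0.916 to 0.931) and 1.18% (1.18 to 1.19) of the assigned reads in CD93pos replicates 1, 2 and 3. In CD93neg replicates 1, 2 and 3 the shares were 0.422% (0.414 to 0.429), 0.783% (0.775 to 0.791) and 0.729% (0.720 to 0.739). The groups did not overlap. Mean shares were 1.03% ± 0.136 and 0.645% ± 0.195 (SD, n = 3 each), a ratio of 1.60. The ratio was 1.36 without CD93neg replicate 1, the lowest library. Without CD93neg replicates 2 and 3 together, a choice made after seeing the data that leaves the sparse replicate 1 as the only CD93neg library, it was 2.44. As a sum over chosen members, this share carries no test.

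No member passed the test across all genes. Members were tested two-sided with limma on log2(normalized count + 1), adjusted after Benjamini and Hochberg over 11805 genes, and 44 of the 45 members had the mean normalized count of at least 10 that it required. At an adjusted p under 0.05 it called 0 of the 44 members and 0 of all genes (0.0%), and edgeR's quasi-likelihood test on whole reads recovered from the table also called 0 of each (0.0%). At an unadjusted p under 0.05, limma had 3 members higher in CD93pos (Psma8, Psmd2 and Psmg3) and none lower, against 11.8% of all genes higher and 0.381% lower. DESeq2 on the same reads called 1 member, Psma8, as higher. Of the 11813 genes to which it gave an adjusted p, it called 5.97%, with 5.58% higher and 0.389% lower. Later DESeq2 shares of all genes are likewise over genes with an adjusted p, 12948 without CD93neg replicate 1 and 12794 without CD93neg replicate 3. Psma8 had no read in any CD93neg library and met the required mean count only through CD93pos. Of the 44 members, 38 (86.4%) had a positive log2 fold change, against 79.9% among all genes tested.

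The median log2 fold change of the members was 3.23, which is 0.88 above the median of all tested genes (2.36). Without CD93neg replicate 1 it was 0.30, which is 0.13 below the median of all genes (0.44), so in limma the order of these medians turned with that library. In DESeq2 without CD93neg replicate 1 the median of the members was above that of all genes (0.30 against 0.17). In DESeq2 without CD93neg replicate 3 it lay below (0.87 against 0.98). These DESeq2 medians are over 45 members and all genes with a read, 20227 and 19965, while limma used the filter on mean count. The medians of limma and DESeq2 are therefore not over the same genes. Normalized counts of a member did not overlap between the groups and were higher in CD93pos for 13 of the 44 (29.5%), against 18.3% of all tested genes. They were lower in CD93pos for 1, Psmg2, against 1.92% of all tested genes. With CD93neg replicate 1 left out, 16 members (36.4%, against 21.8% of all tested genes) lay higher without overlap and 4 (9.09%, against 13.8%) lower. The 4 were Psmg2, Psmg4, Psme1 and Psmd8.

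**Figure D1:**
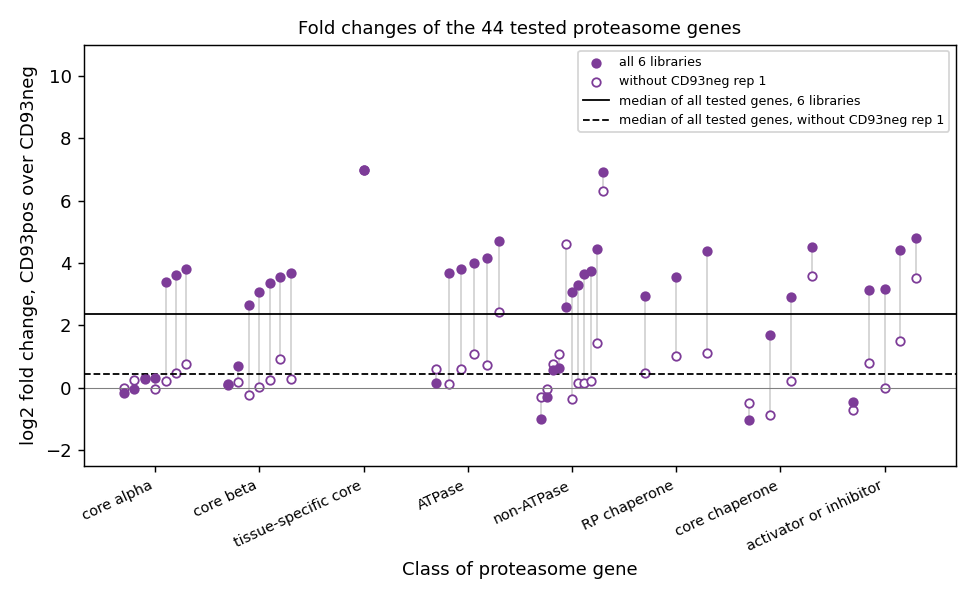
Log2 fold change (CD93pos over CD93neg, log2(normalized count + 1) scale) of each of the 44 tested members by class, with all 6 libraries (filled) and without CD93neg replicate 1 (open); lines give the medians of all tested genes, 2.36 and 0.44. Most members above 2 with all libraries lie below 2 without that library, while Psma8 and Psmd2 lie above 6 in both.

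In the CD93pos libraries each of the 44 tested members was read in every library. The member with the fewest reads was Psmg3 in replicate 2, with 51, and at the total of the smallest library this would be 24.9 reads. In the CD93neg libraries 27, 4 and 1 of the 44 had no read in replicates 1, 2 and 3 (61.4%, 9.09% and 2.27%), against 71.0%, 26.4% and 16% of all tested genes. Read in all 3 CD93neg libraries were 16 members (36.4%), against 23.3% of all tested genes. Some members of CD93neg replicate 1 had next to no reads, among them Psmc1 and Psmf1 with 1 each and Psmd2 with 4, while others were well read, among them Psmd3 with 1528 and Psmc2 with 1373. The 3 best-read members took 34.9% of the proteasome reads in that library, against 14.7% to 15.3% in CD93pos.

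**Figure D2:**
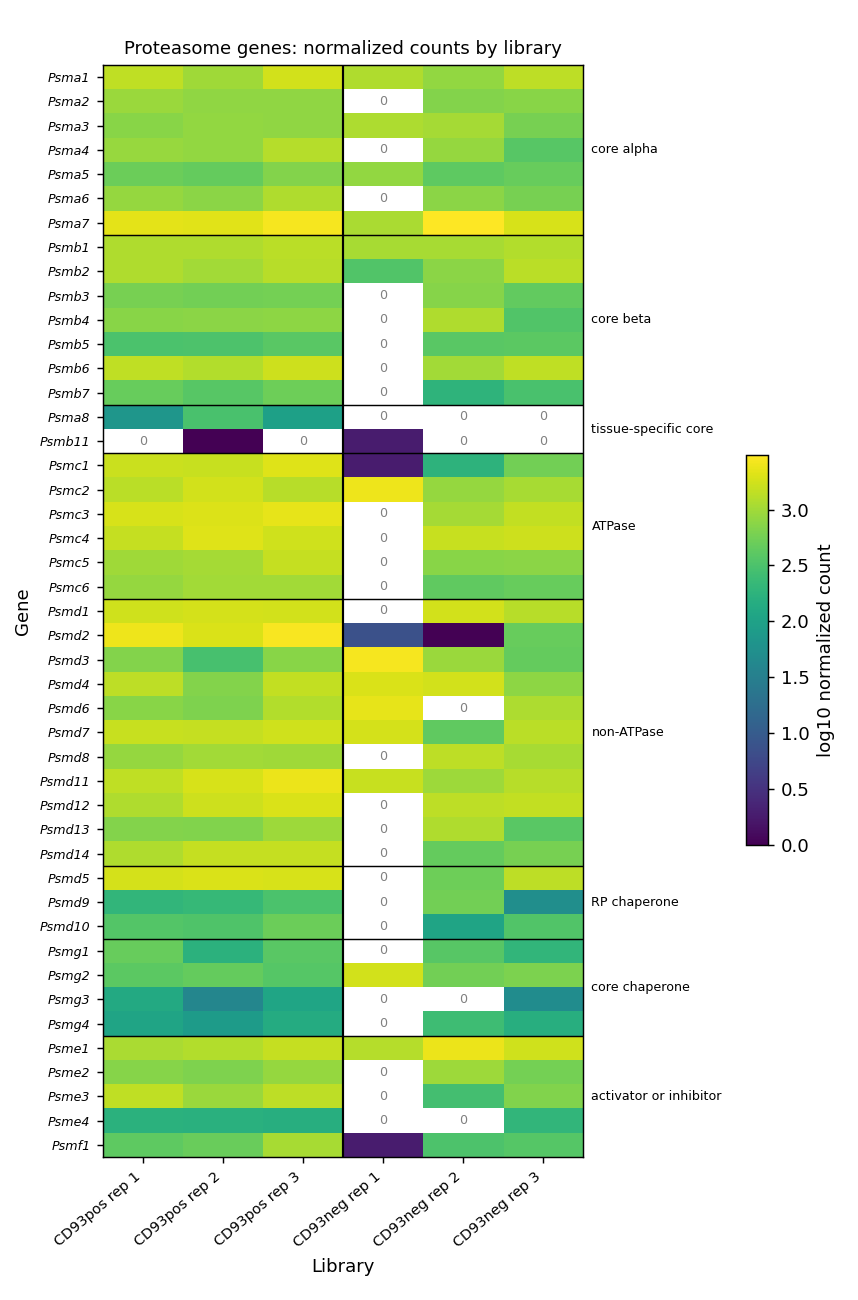
Normalized counts (log10 colour scale) of the 45 members (rows, by class) in the 6 libraries (columns); white cells with 0 had no read. CD93pos columns are filled apart from Psmb11, while CD93neg replicate 1 has 27 empty cells next to members at full level.

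The proportions among subunits were more alike among the CD93pos libraries than among the CD93neg libraries. Levels per length were taken as RPKM (CPM per kilobase of exon) over the 31 core and regulatory subunits. The Spearman correlation across these subunits, given as a description over genes that share library and depth, was 0.90 to 0.95 for the 3 pairs of CD93pos libraries. It was -0.22 and 0.11 for the pairs of CD93neg libraries that include the sparse replicate 1 and 0.60 for replicates 2 and 3. CD93neg replicate 3 correlated with the CD93pos libraries at 0.76 to 0.78. The coefficient of variation of RPKM over the 31 subunits was 0.528, 0.551 and 0.548 in the CD93pos libraries, against 1.45, 0.672 and 0.676 in those of CD93neg. All 3 CD93neg libraries thus lay above the CD93pos range. Over the subunits read in each library (14, 30 and 31 in CD93neg replicates 1, 2 and 3) the CD93neg values were 0.633, 0.636 and 0.676, again above CD93pos. These sets differ, so the value of replicate 1 is not of the same subunits as the others.

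**Figure D3:**
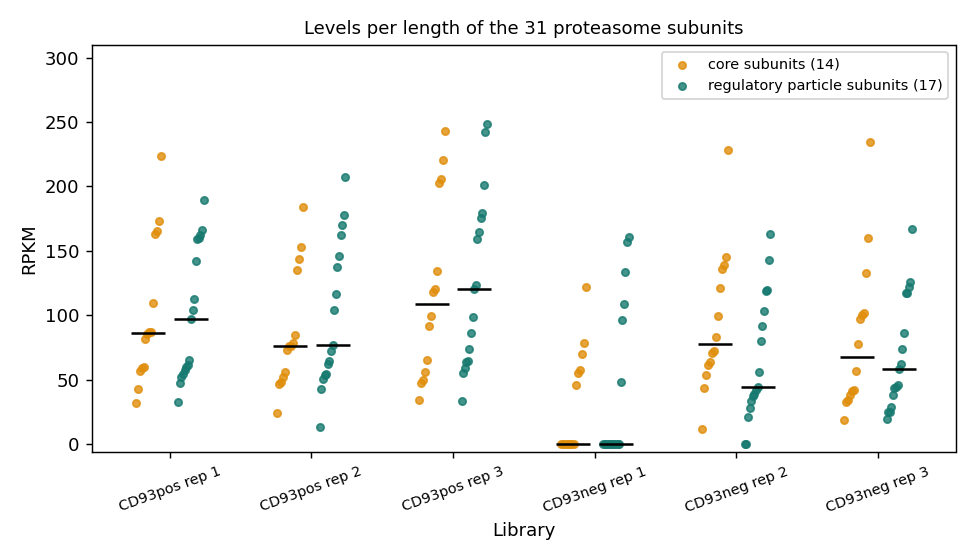
RPKM of the 14 core and 17 regulatory particle subunits in each library, 1 point per gene, with the median as a bar. Medians lie between 76.0 and 121 RPKM in the CD93pos libraries, and 8 core and 9 regulatory subunits sit at 0 in CD93neg replicate 1.

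The core and the regulatory particle were compared by their summed reads. Core subunits summed to 3078, 2675 and 3595 CPM in CD93pos and to 1110, 2959 and 2459 CPM in CD93neg. The groups overlapped, with CD93neg replicate 2 above CD93pos replicate 2. Regulatory particle subunits summed to 5089, 5038 and 6249 CPM in CD93pos and to 2513, 3429 and 3484 CPM in CD93neg, with no overlap. The ratio of group means was 1.43 for the core and 1.74 for the regulatory particle, and without CD93neg replicate 1 it was 1.15 and 1.58.

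Within a library, the core-to-regulatory ratio of reads was 0.605, 0.531 and 0.575 in CD93pos replicates 1, 2 and 3. In CD93neg replicates 1, 2 and 3 it was 0.442, 0.863 and 0.706. The CD93neg libraries lay on both sides of the CD93pos range, with replicate 1 below it and replicates 2 and 3 above it. The means were 0.570 ± 0.0371 and 0.670 ± 0.213 (SD, n = 3 each), a difference within the spread of CD93neg. The CD93pos over CD93neg quotient of this ratio was 0.851, and 0.727 to 0.994 when 1 library was left out. Over the 13 subunits read in every library (6 core and 7 regulatory), taken per kilobase, it was 0.631. That set was chosen after seeing the data, was decided by the reads of CD93neg replicate 1, and includes Psmc1 and Psmd2 at 1 to 4 reads in some CD93neg libraries. By class, ATPases summed to 2066 ± 185 CPM in CD93pos and 957 ± 421 in CD93neg, a ratio of 2.16 with no overlap. Non-ATPases had a ratio of 1.55, again with no overlap, while the alpha and beta classes had 1.37 and 1.52 with overlap. Without CD93neg replicate 1 these 4 ratios were 1.73, 1.5, 1.16 and 1.13. Whether the classes differ from each other was not tested.

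**Figure D4:**
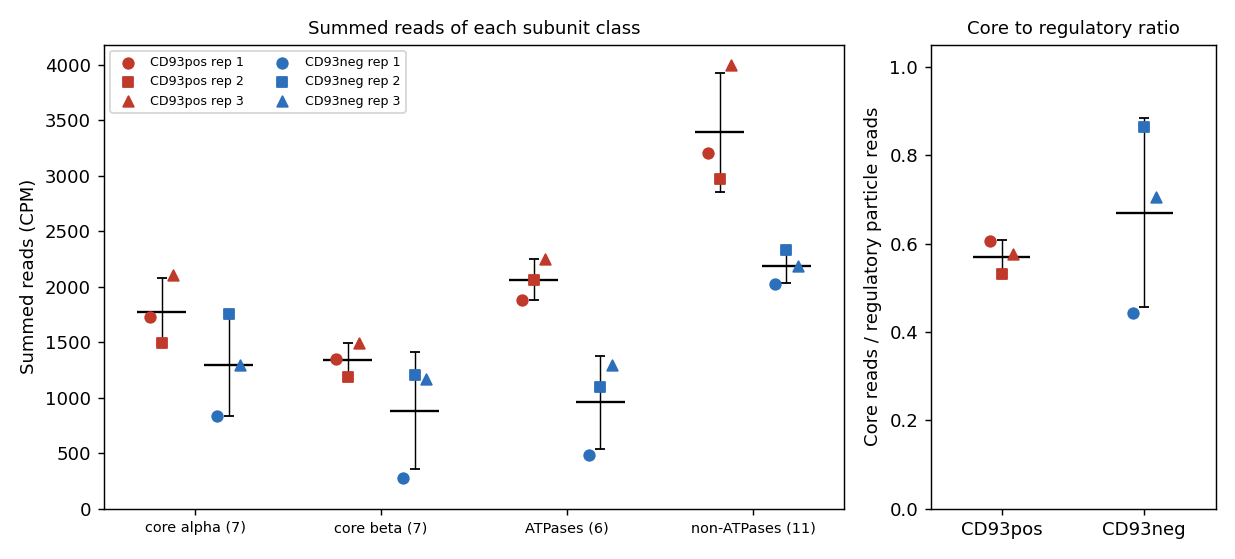
Left, summed reads (CPM) of the 4 subunit classes in each library (points), with the group mean (bar) and SD (whisker); right, core reads divided by regulatory particle reads. ATPase sums are 1882 to 2251 CPM in CD93pos and 485 to 1293 CPM in CD93neg, and the core-to-regulatory ratio spans 0.442 to 0.863 in CD93neg around the 0.531 to 0.605 of CD93pos.

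Among the 7 alpha subunits, which form the outer rings and the gate of the core, 5 had a positive log2 fold change and 2 a negative one (median 0.33). Psma7 had the highest level per length over all 6 libraries, with 174 RPKM in CD93pos and 144 RPKM in CD93neg. Its reads were 4824, 2722 and 4446 in CD93pos and 610, 3230 and 1226 in CD93neg. By normalized count CD93neg replicate 2 was the highest of all 6 libraries (3073) and CD93neg replicate 1 the lowest (1107). Psma4 had 1922, 1043 and 2046 reads in the CD93pos libraries, against 0, 912 and 242 in CD93neg, with a log2 fold change of 3.81 and an SE of 2.65 (limma adjusted p = 0.58). Psma6 had 1913, 966 and 1947 reads and 0, 791 and 377, with a log2 fold change of 3.61. Psma6 kept the groups apart by normalized count, but narrowly, with 765 in CD93pos replicate 2 and 753 in CD93neg replicate 2. Psma4 did not keep them apart, since CD93neg replicate 2 lay within its CD93pos range. Psma1 was steadier, with normalized counts of 1408, 988 and 1750 in CD93pos and 1195, 825 and 1385 in CD93neg and a log2 fold change of 0.28 (SE 0.61). Psma3 and Psma5 had log2 fold changes of -0.17 and -0.03, whose signs turned under TMM scaling (to 0.06 and 0.21) and quantile normalization (0.13 and 0.09). Psma2 had 0 reads in CD93neg replicate 1, and its other values were 700 and 728 normalized counts in CD93neg against 806 to 906 in CD93pos.

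All 7 beta subunits, which form the inner rings, had a positive log2 fold change (median 3.07, and 0.19 without CD93neg replicate 1). Psmb5, Psmb6 and Psmb7 carry the chymotrypsin-like, caspase-like and trypsin-like sites. No read of these 3 genes was found in CD93neg replicate 1, where 3 reads would be 1.06 CPM. Psmb5 had 696, 408 and 641 reads in the CD93pos libraries, against 412 and 262 in CD93neg replicates 2 and 3, and by normalized count the first of these lay within and the second above the CD93pos range of 318 to 394. Psmb6 had 3077, 1560 and 2750 reads in the CD93pos libraries, against 1046 and 899 in CD93neg replicates 2 and 3, with a log2 fold change of 3.68 and an SE of 2.71 (limma adjusted p = 0.597). Psmb7 had 1032, 476 and 838 reads in the CD93pos libraries, against 192 and 195 in CD93neg replicates 2 and 3. It was the only beta subunit whose groups did not overlap, with mean normalized counts of 455 ± 70.8 and 162 ± 153 (SD, n = 3 each) and a limma adjusted p of 0.592. Psmb7 shares 405 exon bases with Nek6, and strand was not stated, so reads of the pair cannot be separated.

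The non-catalytic subunit Psmb1 had the smallest coefficient of variation of all 44 tested members, 0.0757 over the 6 libraries. Its normalized counts were 1178, 1181 and 1321 in CD93pos and 1087, 1086 and 1232 in CD93neg. The groups overlapped and differed by a log2 fold change of 0.11 (SE 0.58). Psmb2, also non-catalytic, had the highest level per length of the beta class, 217 RPKM in CD93pos and 145 RPKM in CD93neg. Its normalized counts in CD93neg were 343, 766 and 1327, spanning the CD93pos values of 1018 to 1287.

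The immunoproteasome subunits Psmb8, Psmb9 and Psmb10, which replace Psmb5, Psmb6 and Psmb7 in immune cells, were outside the member list. Their summed level per length, divided by that of the 3 constitutive catalytic subunits, was 0.945, 1.10 and 0.820 in CD93pos and 2.12 and 1.37 in CD93neg replicates 2 and 3, and could not be formed in CD93neg replicate 1. Psmb9 was at 450, 358 and 402 normalized counts in CD93pos and at 1258, 1215 and 1300 in CD93neg. It was lower in every CD93pos library, with a log2 fold change of -1.64 and an SE of 0.87 (limma adjusted p = 0.471), while Psmb8 and Psmb10 overlapped between the groups.

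Psma8 had the smallest p of all members. It encodes a testis-specific alpha subunit that takes the place of Psma7 in the proteasome of spermatogenic cells, and it lies on chromosome 18. There were 147, 391 and 154 reads in CD93pos replicates 1, 2 and 3 and 0 in each CD93neg library. Each CD93pos library thus lay above all CD93neg libraries, where 3 reads would be 0.650 to 1.06 CPM. With the CD93neg group as a whole set to a floor of 3 reads, the level was at least 107-fold higher in CD93pos. This bound was 62.9 without CD93pos replicate 2 and 59.9 without CD93neg replicate 2. Without any other single library it was 76.5 to 147. The gene passed the filter on low values only through the CD93pos group. It was the 1 member of 44 (2.27%) that all CD93pos libraries and no CD93neg library contained, a pattern held by 4.6% of all tested genes.

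The log2 fold change of Psma8 was 6.98 (SE 1.33), and the limma adjusted p was 0.0558, just outside the threshold. DESeq2 called it (adjusted p = 0.00464), as does the authors' deposited table with the same adjusted p, and edgeR did not (adjusted p = 0.378). The DESeq2 call was lost without CD93pos replicate 2 (adjusted p = 0.0717), the library with most of its reads. Among the other limma settings, whose adjusted p was 0.00919 to 0.371, it passed with a pseudocount of 0.5 (adjusted p = 0.0495, with 1.75% of all genes called) and a minimum mean of 1 (0.0422, 2.71%). It also passed without CD93pos replicate 2 (0.0269, 6.06%) and without CD93neg replicate 3 (0.00919, 16.2%). Psma7, its close relative, was read at 3230 in CD93neg replicate 2, where Psma8 had none. The level of Psma8 was far below that of Psma7: 6.20, 27.1 and 8.63 RPKM in CD93pos, against 165, 153 and 202 RPKM. CD93pos replicate 2, with the highest Psma8 level, also had the highest sum of mast cell and basophil markers (1057 CPM, against 94.7 and 696 CPM in CD93pos replicates 1 and 3). The part of those cells was not tested. Psmb11, the core subunit of cortical thymic epithelium, had 1 read in CD93pos replicate 2, 1 in CD93neg replicate 1 and none elsewhere, and was not tested.

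All 6 ATPases, which form the unfolding ring of the regulatory particle, had a positive log2 fold change (median 3.91, and 0.67 without CD93neg replicate 1). Psmc1, Psmc3, Psmc5 and Psmc6 (4 of 6) lay higher in CD93pos without overlap, against 18.3% of all tested genes. Psmc2 joined them (5 of 6, against 21.8%) once CD93neg replicate 1 was left out. Psmc1 opens the gate of the core through its tail. It had 3488, 1995 and 3352 reads in the CD93pos libraries, against 1, 190 and 361 in CD93neg, or 1595, 1581 and 2063 against 1.82, 181 and 564 normalized counts. All 3 CD93neg values were far below the lowest CD93pos value. The group means, 1746 ± 274 for CD93pos and 249 ± 287 for CD93neg (SD, n = 3 each), stood in a ratio of 7.01, with a log2 fold change of 4.71 and an SE of 2.13 (limma adjusted p = 0.425). Without CD93neg replicate 1 the log2 fold change was 2.44, and DESeq2 then called Psmc1 (adjusted p = 0.0371, against 10.3% of all genes called in that fit). The gene lies on chromosome 12 (GRCm38, 100110154 to 100123405).

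Psmc3 had 4127, 2564 and 3749 reads in the CD93pos libraries, against 0, 1105 and 954 in CD93neg. Its mean normalized counts were 2075 ± 214 and 847 ± 766 (SD, n = 3 each), giving a log2 fold change of 4.15 and an SE of 2.66 (limma adjusted p = 0.549). The ratio of means was 2.35 for Psmc5 and 3.17 for Psmc6, both unread in CD93neg replicate 1. Psmc4 had the highest level per length of the ATPases over all 6 libraries, with 183 RPKM in CD93pos and 110 RPKM in CD93neg. Outside the unread replicate 1, its CD93neg normalized counts of 1547 and 1693 lay within the CD93pos range of 1523 to 2059. Psmc2 went the other way in CD93neg replicate 1, with 2492 normalized counts, the highest of the 6 libraries, against 861 and 1077 in CD93neg replicates 2 and 3 and 1309 to 1771 in CD93pos.

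Of the 11 non-ATPases, 9 had a positive log2 fold change and 2, Psmd3 and Psmd4, a negative one. Psmd2 is a scaffold at the base of the regulatory particle that binds ubiquitin shuttle proteins and the deubiquitinase Usp14. It had 5443, 2441 and 4594 reads in the CD93pos libraries, against 4, 1 and 300 in CD93neg. In CD93pos it was among the best-read members, and it was nearly absent from both CD93neg replicates 1 and 2. Mean normalized counts were 2416 ± 451 and 159 ± 268 (SD, n = 3 each), a ratio of 15.2, with a log2 fold change of 6.93 and an SE of 2.32 (limma adjusted p = 0.232, edgeR adjusted p = 0.536). Psmd2 (chromosome 16, GRCm38, 20651652 to 20663414) kept a log2 fold change of 6.30 without CD93neg replicate 1. It passed limma (adjusted p = 0.0196) and DESeq2 (adjusted p = 0.00016) only without CD93neg replicate 3, which leaves 4 and 1 reads in CD93neg, when 16.2% and 19.1% of all genes passed.

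Psmd14 is the deubiquitinase that cuts ubiquitin chains from the substrate. Its reads were 2597, 1907 and 2498 in CD93pos and 0, 487 and 373 in CD93neg, without overlap by normalized count. The ratio of means was 4.05 and the log2 fold change 4.44 (SE 2.56, limma adjusted p = 0.507). Without CD93neg replicate 1 DESeq2 called it (adjusted p = 0.0191), with a log2 fold change of 1.46 (SE 0.46), in the fit that called 10.3% of all genes. Psmd7, the partner of Psmd14 and the non-ATPase with the highest level per length, had 3415, 1914 and 2838 reads in the CD93pos libraries, against 1003, 460 and 853 in CD93neg. By normalized count CD93neg replicate 1 (1821) was above all CD93pos libraries (1517 to 1746), while CD93neg replicates 2 and 3 were below them (438 and 1333). Psmd11, a scaffold subunit of the lid, had 1587, 939 and 1314 normalized counts in CD93neg against 1436 to 2420 in CD93pos.

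Psmd3 and Psmd6, also of the lid, showed how far single libraries decided a mean. Psmd3 had 2774 normalized counts in CD93neg replicate 1 and 924 and 461 in the others, against 300 to 726 in CD93pos, with a log2 fold change of -0.98 (SE 1.03). Psmd6 had 2309, 0 and 1138 normalized counts in CD93neg and 651 to 1220 in CD93pos. Its mean was lower in CD93pos (866 against 1149) although its log2 fold change was 2.59. The ubiquitin receptor Psmd4 had 1379, 694 and 1491 normalized counts in CD93pos and 1932, 1759 and 774 in CD93neg, with a log2 fold change of -0.29 (SE 0.67). The other members of this class, Psmd1, Psmd8, Psmd12 and Psmd13, were unread in CD93neg replicate 1. Apart from it Psmd1, Psmd12 and Psmd13 overlapped between the groups, and Psmd8 was higher in CD93neg (1383 and 1061 normalized counts) than in CD93pos (865 to 1010). Psmd1 and Psmd13 share exon bases with Htr2b and Sirt3.

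The regulatory particle chaperones Psmd5, Psmd9 and Psmd10, which guide assembly of the ATPase ring, were all unread in CD93neg replicate 1. Psmd5 had 3952, 2434 and 3030 reads in the CD93pos libraries, against 549 and 890 in CD93neg replicates 2 and 3. The means of 1867 ± 61.1 and 638 ± 703 normalized counts (SD, n = 3 each) came from groups that did not overlap (log2 fold change 4.37, SE 2.61, limma adjusted p = 0.523). Psmd10, also known as the oncoprotein gankyrin and encoded on the X chromosome, had 782, 426 and 815 reads in the CD93pos libraries, against 115 and 222 in CD93neg replicates 2 and 3, the libraries with Xist reads. CD93neg replicate 3 (347 normalized counts) lay within the CD93pos range of 338 to 502. Psmd9, with 577 and 34 reads in those libraries, shares 1849 exon bases with Gm26745 on the opposite strand, so its value is uncertain.

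The core chaperones act as the pairs Psmg1 with Psmg2 and Psmg3 with Psmg4, on which the alpha ring is built. Psmg2 was the only member lower in every CD93pos library, with normalized counts of 412, 459 and 375 in CD93pos and 1792, 551 and 624 in CD93neg. The ratio of CD93neg to CD93pos means was 2.38, the log2 fold change was -1.04 and the limma adjusted p was 0.635. Without CD93neg replicate 1 the log2 fold change was -0.50. For its partner Psmg1 there were 1053, 220 and 632 reads in the CD93pos libraries, against 0, 398 and 128 in CD93neg, a ratio of means of 1.81 toward CD93pos. The groups overlapped, and the log2 fold change of Psmg1 was 2.92 with all libraries and 0.21 without CD93neg replicate 1. The difference between the partners was not tested. Psmg3 had 285, 51 and 183 reads in the CD93pos libraries, against 0, 0 and 32 in CD93neg, with a log2 fold change of 4.52 and an SE of 1.89 (limma adjusted p = 0.39). CD93neg replicate 3 (50.0 normalized counts) lay above CD93pos replicate 2 (40.4), so the groups overlapped. Leaving out CD93neg replicate 3 removes the only CD93neg library in which it was read. It then passed limma (adjusted p = 0.00934) and DESeq2 (adjusted p = 0.00548) against a group at 0, having passed the filter only through CD93pos, in fits that called 16.2% and 19.1% of all genes. Psmg4 had 80.8 to 142 normalized counts in CD93pos and 0, 251 and 152 in CD93neg.

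Psme1 and Psme2 form an interferon-inducible activator that opens the core without ATP or ubiquitin. Psme1 had 2388, 1521 and 2430 reads in the CD93pos libraries, against 695, 2543 and 1092 in CD93neg. By normalized count CD93neg replicates 2 and 3 were the 2 highest libraries (2419 and 1707), and the log2 fold change was -0.47 (SE 0.52, limma adjusted p = 0.657). It had the highest level per length of its class, 129 RPKM in CD93pos and 175 RPKM in CD93neg. Its partner Psme2 was unread in CD93neg replicate 1, and its values in CD93neg replicates 2 and 3 (941 and 575 normalized counts) lay on both sides of the CD93pos range (652 to 852). Psme3, which encodes the related nuclear activator, went in the other direction, with 3107, 1165 and 2244 reads in the CD93pos libraries, against 0, 293 and 426 in CD93neg. The groups did not overlap, and the ratio of means was 3.94 (log2 fold change 4.42, SE 2.56, limma adjusted p = 0.509).

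Psme4, a nuclear activator used in spermatogenesis and DNA repair, had 364, 204 and 246 reads in the CD93pos libraries, against 0, 0 and 125 in CD93neg. CD93neg replicate 3 was the highest of the 6 libraries by normalized count (195, against 151 to 166 in CD93pos). The log2 fold change was 4.79 (SE 2.29, limma adjusted p = 0.448). When CD93neg replicate 3 is left out, the CD93neg group is at 0 and the gene passes the filter only through CD93pos, and the adjusted p was then 0.00762 by limma and 0.00225 by DESeq2, in the same fits. The inhibitor Psmf1 had 917, 617 and 1757 reads in the CD93pos libraries, against 1, 341 and 235 in CD93neg, without overlap and with a limma adjusted p of 0.599.

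Other genes of the pathway were described by a list of 31: further regulatory particle proteins, ubiquitin genes, shuttle proteins, the ubiquitin-selective segregase Vcp and its cofactors, and factors that make or control the proteasome. All 31 were tested, and 0 passed limma in either direction. Of these, 27 had a positive log2 fold change (median 2.92), and 6 lay higher in CD93pos without overlap and 0 lower, against 18.3% and 1.92% of all tested genes. Their summed reads were 5729, 5754 and 6161 CPM in CD93pos and 2615, 4089 and 5265 CPM in CD93neg.

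Ublcp1, a phosphatase that acts on the proteasome, was read 45, 148 and 106 times in CD93pos and never in CD93neg (limma adjusted p = 0.0717). It passed the filter on low values only through CD93pos and has the pattern held by 4.6% of all tested genes. DESeq2 called it (adjusted p = 0.0151), with 5.97% of all genes. Ubb, a polyubiquitin gene, had 15193, 9848 and 15135 reads in the CD93pos libraries, against 1089, 4941 and 4221 in CD93neg. It was read deeply everywhere and did not overlap, with a log2 fold change of 1.01 and an SE of 0.39 (limma adjusted p = 0.334). Ube3c, a ubiquitin ligase of the proteasome, had 199, 408 and 173 reads against 0, 1 and 41. Nfe2l1, the transcription factor that raises proteasome genes when proteasome activity falls, had 406, 159 and 234 reads in the CD93pos libraries, against 1, 4 and 103 in CD93neg. By normalized count its CD93neg replicate 3 lay within the CD93pos range, and the limma adjusted p was 0.505. Pomp, the maturation factor of the core, was read in all 6 libraries, with 2426, 1336 and 1558 reads in the CD93pos libraries, against 155, 1308 and 648 in CD93neg and a log2 fold change of 0.55 (SE 0.89).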

How the data were processed

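The 6 libraries were grouped by the titles in the labels, 3 CD93pos and 3 CD93neg. DESeq2 1.26, featureCounts (Subread 1.5.0-p1) and STAR are listed in the submitters' processing notes, as are the builds mm10 and GRCm38. Neither the annotation release nor the strand setting is stated there, and 11 of the 45 members share exon bases with another gene.

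The table deposited by the authors holds a signal per gene, its count over a size factor of the library. Their second deposited table gives the log2 fold change, its standard error and Wald score, and the p-value of each gene. Dividing by the step of 1 read gave whole reads for 100% of values above 0 (tolerance 0.001). Intervals and floors (3 reads) cover counting error only, and amplified reads are not independent molecules.

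A mean normalized count of 10 was required, and testing used limma 3.58.1 (trend) on log2(normalized count + 1), two-sided, Benjamini-Hochberg, threshold 0.05. Fold changes are on that scale, which understates low genes and gives large values where a library is at 0. edgeR 4.0.16 and DESeq2 1.42.0 in R 4.3.3 were run on the recovered reads. The limma and edgeR fits were tried on simulated counts that lacked the many unread genes of CD93neg replicate 1. That trial did not cover DESeq2 or the other steps. Exon lengths and positions came from GENCODE M21 (GRCm38), matched by ID for all 45 members; lengths are of all annotated exons, and retained introns lower an RPKM. Python 3.11.15, pandas 2.3.3 and matplotlib 3.10.9 were used otherwise.

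Members and lists were chosen with earlier results of these data known. Library values were given, in each class, for the 2 members with the smallest p and the one with the highest level per length, for the 3 members with the lowest coefficient of variation, the catalytic subunits, the 3 partners with the smallest p, Nfe2l1 and Pomp. Others were added after their values were seen. Alternatives changed the pseudocount, the filter, the scaling or the test, added a replicate block, or left out 1 library.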

Additional observations from a re-analysis of the deposited data

How the results depend on the processing

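The count of members called was 0 with pseudocount 5, without a filter, under CPM, TMM and quantile scaling and by edgeR. It was 1, Psma8, with pseudocount 0.5, with a minimum mean of 1 and by DESeq2. Those settings called 1.75%, 2.71% and 5.97% of all genes. With 1 library left out limma called 0 to 4 members, the 4 in a fit that called 16.2% of all genes. DESeq2 called 1 with all libraries and 0 to 4 with 1 left out, a set chosen after seeing the data. Its 4 came from a fit that called 19.1% of all genes. With a replicate block 0 members were called, and 24 of all genes against 0. Same-numbered libraries had correlations of 0.037, 0.019 and 0.061 in their deviations from the group means. These values are low, although every library correlated best with its own number, and the main fit left the libraries unpaired. Same-numbered libraries differed in Ddx3y, read in each CD93pos library and in no CD93neg library. Whether the libraries are paired was not tested. The ratio of summed reads was 1.36 to 1.79 with 1 library left out, and 2.44 without CD93neg replicates 2 and 3 together, a choice made after seeing the data. The median of the members minus that of all genes, 0.88 with all libraries, was 0.23 (DESeq2) to 2.15 (no filter) across settings. Both ends of this range are over the 20492 genes with a read, rather than the 11805 of the main fit. With 1 library left out the difference was -0.13 to 1.49 in limma and -0.10 to 0.47 in DESeq2, again over unlike sets of genes. Quantile normalization moved the median of all genes from 2.36 to 0.02, and genes at an unadjusted p under 0.05 from 1391 higher and 45 lower to 689 and 916. The core-to-regulatory quotient was 0.727 to 0.994 with 1 left out.

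Log2 fold changes of 34 of the 44 tested members had 1 direction in the alternatives compared, and 10 turned. The cause was not tested. The DESeq2 fits with 1 library left out are not part of this count, and the values below with 1 library left out are of limma. In DESeq2, 35 of 45 members were positive with all libraries and 33 of 45 without CD93neg replicate 1. Under quantile normalization those that turned were 0.13 (Psma3), 0.095 (Psma5) and -0.43 (Psmg4). TMM gave 0.063 (Psma3) and 0.21 (Psma5), and CPM scaling 0.062 (Psma5). edgeR gave 0.031 (Psma3), 0.23 (Psma5), -0.025 (Psmd6) and -0.18 (Psmg4). DESeq2 gave -0.0046 (Psmc2), -0.41 (Psmd6) and -0.29 (Psmg4). Leaving out 1 library gave -0.47 to 0.0035 for Psma3, -0.22 to 0.27 for Psma5, -0.045 to 0.69 for Psma7, -0.22 to 4.12 for Psmb5, -0.17 to 0.60 for Psmc2, -0.71 to 0.055 for Psmd4, -0.96 to 4.63 for Psmd6, -0.34 to 4.87 for Psmd8, -0.86 to 3.13 for Psmg4 and -0.0019 to 4.94 for Psme2. The 3 libraries a group and the sparse CD93neg replicate 1 limit every value.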

Other observations

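Rows with a related name outside the member rule had few reads. Psme2b, a copy of Psme2, was read 30, 13 and 30 times in CD93pos and 0, 13 and 27 times in CD93neg, and the pseudogenes Psmb5-ps, Psmb6-ps, Psmb6-ps2 and Psmb7-ps2 had at most 3 in any library.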
